A study of Mus musculus with 6 samples.

Results

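Skeletal muscle regulators and sarcomere genes were followed in embryonic mouse skin, as a group of 33 genes: the regulators Myod1, Myog, Myf5 and Myf6, myosins, actins, troponins and other sarcomere genes, and genes of calcium handling, the motor endplate and muscle progenitors. All 33 were represented among the 18193 genes that the platform annotation pairs with probe sets carrying a single gene symbol, by 55 of the 45101 probe sets, and each gene was read from its probe set with the highest mean over all 6 arrays. Skin was taken at embryonic day 16.5 and the RNA of each sample was read on its own Affymetrix mouse array, with 3 samples labelled Tcfap2c mutant and 3 labelled control. Tcfap2c, now Tfap2c, encodes the transcription factor AP-2 gamma of surface ectoderm. The labels name no allele, Cre driver, strain or litter for either group, and the description field of the controls also mentions the mutation, although their titles and source names do not. P-values therefore measure the spread between these 6 samples, which may be partly technical, and the question is which of the muscle transcripts present in these skin samples differ when Tcfap2c is mutated.

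Skeletal muscle forms when progenitors that carry Pax7 or Myf5 switch on the basic helix-loop-helix factors Myod1, Myog and Myf6, which work with MEF2 proteins to turn on the genes of the contractile apparatus. In the sarcomere, myosin thick filaments pull on actin thin filaments, and troponin on the thin filament makes this depend on calcium released from the sarcoplasmic reticulum. Fetal muscle uses embryonic and perinatal myosins and a fetal acetylcholine receptor before the adult fast and slow isoforms take over. In rodents a thin sheet of striated muscle, the panniculus carnosus, lies under the dermis, so dissected skin can carry muscle with it.

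The regulatory letters through which such genes are read are shown here for 7 members whose values recur below: a pair of fast-fibre genes, a slow-fibre gene, a receptor gene, both sarcomeric actins and the perinatal myosin. Each line gives the 120 bases before the annotated start, 5′ to 3′ on the gene's strand, from RefSeq on GRCm38.p6, with the motif in capitals. The motifs are CAGCTG, the E-box form favoured by myogenic factors, the CArG box bound by serum response factor, and the MEF2 motif.
Mylpf: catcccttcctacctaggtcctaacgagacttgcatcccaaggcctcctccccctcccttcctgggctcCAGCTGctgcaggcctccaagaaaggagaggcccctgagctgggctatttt
Atp2a1: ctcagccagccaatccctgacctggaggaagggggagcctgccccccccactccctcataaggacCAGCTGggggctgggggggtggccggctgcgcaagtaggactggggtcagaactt
Tnni1: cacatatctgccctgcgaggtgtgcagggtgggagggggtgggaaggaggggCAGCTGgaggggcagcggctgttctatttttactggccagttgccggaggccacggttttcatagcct
Chrna1: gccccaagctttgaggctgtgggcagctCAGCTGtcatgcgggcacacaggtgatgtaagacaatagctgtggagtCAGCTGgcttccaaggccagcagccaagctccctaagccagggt
Acta1: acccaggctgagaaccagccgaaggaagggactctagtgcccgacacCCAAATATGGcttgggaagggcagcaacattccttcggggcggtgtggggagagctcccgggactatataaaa
Actc1: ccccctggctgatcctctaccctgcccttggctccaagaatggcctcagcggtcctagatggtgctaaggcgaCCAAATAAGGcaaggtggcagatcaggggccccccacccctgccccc
Myh8: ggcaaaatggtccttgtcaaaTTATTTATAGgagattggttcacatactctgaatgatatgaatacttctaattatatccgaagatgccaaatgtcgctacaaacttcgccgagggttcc
These windows lie at chr7:127211488-127211607 (plus strand, Mylpf), chr7:126463074-126463193 (minus, Atp2a1), chr1:135799301-135799420 (plus, Tnni1), chr2:73580339-73580458 (minus, Chrna1), chr8:123894776-123894895 (minus, Acta1), chr2:114052876-114052995 (minus, Actc1) and chr11:67277004-67277123 (plus, Myh8).

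Of the 33 members, 28 had at least 1 window in the RefSeq promoter table, which runs from 250 bases before to 50 bases after each start and gave 33 windows for them. Myod1, Myf6, Tnnt3, Tnni2 and Neb were not matched. CAGCTG, which reads the same on both strands, was in 11 of the 33 windows (33.3%), against 16.3% of all 32851 windows. The related E-box CAGGTG, searched on both strands, was in 9 (27.3%, against 20.2% of all), and TATAAA, also on both strands, in 11 (33.3%, against 13.6%). The MEF2 motif was in 4 windows (12.1%, against 3.19%), those of Casq2, Myh1, Myh8 and Ttn, and in Myh1 and Myh8 it overlaps a TATAAA match on the same stretch. The CArG box was in 2 windows (6.06%, against 1.63%), those of the actin genes Acta1 and Actc1. These are matches of letters, not measured sites, and no binding was assayed.

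Muscle transcripts were measured in all 6 samples, and 31 of the 33 members had a mean signal above the median of all probe sets (a signal of about 114.5), the level required for testing. The members with a lower signal were Pax7 and Myh1. In RNA of whole tissue, fewer muscle cells and less of a transcript per cell cannot be told apart. None of the 31 passed an adjusted p of 0.05 (limma, with p-values adjusted by Benjamini-Hochberg across 22518 probe sets), a threshold that 1 probe set passed, or 0.00444%. At an unadjusted p under 0.05 there was 1 member with lower signal in the mutant samples, Myh8, and 0 with higher signal, against 1.97% and 1.45% of all probe sets, or 3.42% in both directions. The median difference, mutant minus control, was -0.06 on the log2(signal + 24.48) scale over the 31 members and -0.02 over all probe sets. There were 18 negative and 13 positive differences, from -0.44 (Myh8) to 0.37 (Myh7).

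The precision of these 6 arrays allows a bound on each difference. For all 31 members, each read from its brightest probe set, the 95% interval excluded a 2-fold change in either direction. This was so for 90.1% of all probe sets tested. The bound does not cover the dimmer probe sets of these genes, such as 1 of Tnnt2 that differed by 0.66. For 19 of the 31 (61.3%) it also excluded a 1.5-fold change, against 47.4% of all probe sets. Brightness moves with this count. Among the 16 members at or above the median level of the group, 12 (75.0%) excluded a 1.5-fold change, against 82.8% of the 2096 probe sets that were as bright. The median spread within groups was 0.24 on the log2 scale over the members and also 0.24 over all probe sets tested. In the brighter 16 it was 0.20, against 0.16 for the probe sets that bright.

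**Figure D1:**
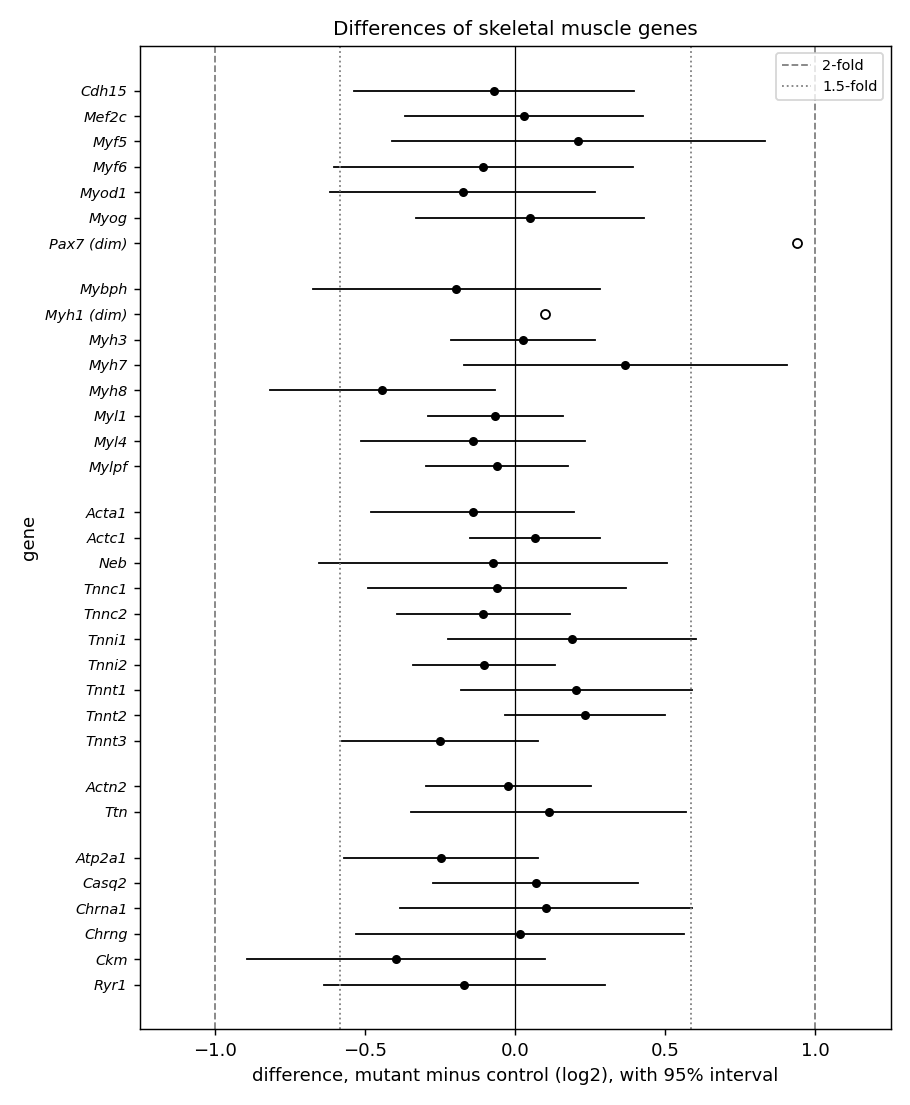
Difference between mutant and control means (log2, mutant minus control) for each of the 33 genes, grouped by role from regulators at the top to calcium, receptor and energy genes at the bottom, with the 95% interval of the limma fit as a line. Open circles are Pax7 and Myh1, which were too dim to be tested. All 31 intervals lie inside the dashed lines at a 2-fold change.

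The myogenic regulators had similar signals in both groups. Myod1, the factor that commits cells to muscle, gave 315, 232 and 338 in mutant samples 1, 2 and 3 and 302, 330 and 368 in control samples 1, 2 and 3. Myog, which drives differentiation of myoblasts into fibres, gave 759, 935 and 1050 in the mutant and 931, 771 and 934 in the control samples. Both sets of samples overlapped, with differences of -0.18 (SE 0.20) and 0.05 (SE 0.17) on the log2 scale. Myf5, the earliest of the 4 factors to be switched on in the embryo, gave 268, 152 and 179 in mutant and 129, 155 and 222 in control samples, a difference of 0.21 (SE 0.27). Myf6, which continues in mature fibres, gave 608, 340 and 434 in mutant and 426, 495 and 541 in control samples, a difference of -0.11 (SE 0.22). For Myf5 and Myf6 mutant sample 1 was the highest of all 6, and without it the difference was 0.0014 for Myf5 and -0.32 for Myf6.

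Mef2c, the MEF2 family member of skeletal muscle and heart, is also made in endothelium, so its signal in skin is not a measure of muscle alone. Its brightest probe set gave 3728, 2482 and 2573 in mutant and 2536, 2941 and 3003 in control samples, a difference of 0.03 (SE 0.17). The 5 tested Mef2c probe sets did not go one way. Their differences were 0.03, -0.20, -0.10, 0.05 and -0.44, and averaged over probe sets Mef2c differed by -0.13. The most negative probe set gave 828, 958 and 1003 in mutant and 1193, 1439 and 1193 in control samples, which did not overlap (limma unadjusted p = 0.0156, adjusted p = 0.9999). Cdh15, the M-cadherin that joins myoblasts and satellite cells, differed by -0.07 (SE 0.21), with 236 in mutant sample 1 and 290 to 357 in the other samples.

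Pax7, the transcription factor of muscle progenitors and later of satellite cells, was dim. Its brighter probe set gave 119, 106 and 65.0 in mutant and 24.4, 40.9 and 49.3 in control samples, so the lowest mutant sample was above the highest control sample. With no filter on low signal the difference was 0.94 (SE 0.35, limma unadjusted p = 0.0236, adjusted p = 0.9999). The other Pax7 probe set gave 60.0, 71.8 and 50.3 in mutant and 61.4, 53.0 and 18.3 in control samples, and these overlapped. Signals this low are near the background of the array, and fold changes there are understated by the constant added before taking logs.

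**Figure D2:**
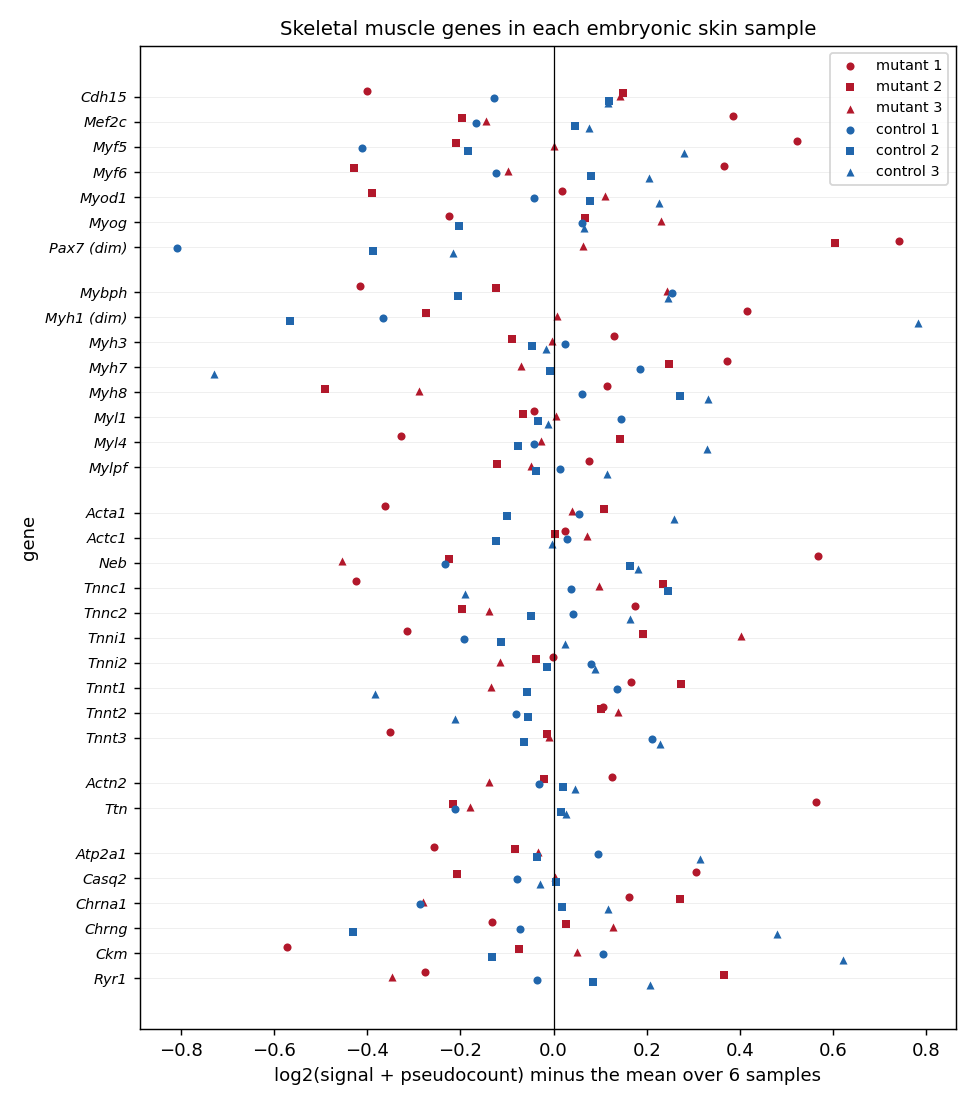
Deviation of each gene's log2(signal + pseudocount) from its own mean over the 6 samples, with mutant samples in red, control samples in blue and the replicate number as the symbol. Most points lie within 0.4 of 0, and those of mutant samples 1 and 2 and control sample 3 lie at the ends of many rows.

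Among thick-filament genes, the heavy chains of embryonic and perinatal fibres were both bright. Myh3, the embryonic heavy chain, gave 11958, 10278 and 10911 in mutant and 11127, 10590 and 10807 in control samples, a difference of 0.02 (SE 0.11). The mutant range enclosed the control range, and the 95% interval of Myh3 ran from -0.22 to 0.27. Myh8, the perinatal heavy chain that follows it in development, gave 7024, 4615 and 5305 in mutant and 6769, 7838 and 8175 in control samples. Mutant samples 2 and 3 lay below every control sample, while mutant sample 1 lay above control sample 1. The difference of Myh8 was -0.44 (SE 0.17), 1.36-fold lower on that scale, with an unadjusted p of 0.0256 and an adjusted p of 0.9999 in limma. It was the largest difference in size among the 31 tested members. With 1 sample left out it ran from -0.61 (without mutant sample 1) to -0.31 (without mutant sample 2). Without mutant sample 1 the limma adjusted p was 0.141, in a fit where 39 probe sets passed, or 0.173%, and 0 of the 31 members did.

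Myh7, the slow heavy chain shared with the heart ventricle, had the largest positive difference, 0.37 (SE 0.24). Its signal was 2262, 2072 and 1659 in mutant and 1985, 1732 and 1042 in control samples, with control sample 3 far below the others. Without control sample 3 the difference was 0.094. Myh1, an adult fast heavy chain, was below the level required for testing, with 101, 53.4 and 70.2 in mutant and 48.6, 39.1 and 138 in control samples. The related adult fast chains Myh2 and Myh4 were also dim, at no more than 55.3 and 70.3 in any sample, and heavy chains of such similar sequence can share probe signal.

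The fast myosin light chains were steady across samples. Mylpf, the fast regulatory light chain, gave 18443, 16069 and 16915 in mutant and 17660, 17036 and 18939 in control samples, a difference of -0.06 (SE 0.10). Myl1, the fast alkali light chain, gave 18278, 17976 and 18898 in mutant and 20803, 18397 and 18663 in control samples, a difference of -0.07 (SE 0.10). For both genes the samples overlapped and the 95% interval stayed within 0.3 of 0. Myl4, the embryonic and atrial light chain, gave 3465, 4809 and 4270 in mutant and 4226, 4127 and 5476 in control samples, a difference of -0.14 (SE 0.17). Mybph, a myosin-binding protein, differed by -0.20 (SE 0.21), with 504, 623 and 810 in mutant and 816, 587 and 812 in control samples.

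On the thin filament, the sarcomeric actins whose CArG boxes are shown above differed little. Acta1, the skeletal alpha actin, gave 17022, 23573 and 22462 in mutant and 22723, 20399 and 26176 in control samples, a difference of -0.14 (SE 0.15). Actc1, the cardiac alpha actin that fetal skeletal muscle also makes, gave 22432, 22090 and 23195 in mutant and 22488, 20249 and 22003 in control samples, a difference of 0.07 (SE 0.10). Mutant sample 1 was the lowest of all for Acta1 and within the range of the others for Actc1. Neb, which encodes nebulin, the ruler of the thin filament, gave 2295, 1316 and 1119 in mutant and 1308, 1731 and 1751 in control samples, a difference of -0.07 (SE 0.26).

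Troponin T, which ties the troponin complex to tropomyosin, has a slow, a cardiac and a fast gene, and all were measured. Tnnt2, the cardiac form that embryonic skeletal muscle also makes, gave 2784, 2778 and 2848 in mutant and 2443, 2487 and 2231 in control samples, with no overlap between the groups. Its difference was 0.23 (SE 0.12, limma unadjusted p = 0.0809, adjusted p = 0.9999). Tnnt2 was the 1 member of 31 whose groups did not overlap with mutant samples higher, and there were 0 with mutant samples lower, against 3.3% and 5.03% of all probe sets, or 8.33% in both directions. The other tested Tnnt2 probe sets, read from the same RNA, differed by 0.26 and 0.66, with mutant samples again above control samples (the dimmer one at 264, 415 and 337 against 262, 177 and 177). Averaged over the 3 probe sets, Tnnt2 differed by 0.38. Tnnt1, the slow form, gave 3849, 4149 and 3122 in mutant and 3772, 3295 and 2623 in control samples, a difference of 0.20 (SE 0.17). Tnnt3, the fast form, gave 3749, 4742 and 4755 in mutant and 5548, 4583 and 5616 in control samples, a difference of -0.25 (SE 0.14). Both overlapped between groups.

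Troponin I, the inhibitory subunit, showed the same opposition of signs without passing the test. Tnni1, the slow form, gave 3610, 5142 and 5952 in mutant and 3934, 4155 and 4570 in control samples, a difference of 0.19 (SE 0.18). Mutant samples 2 and 3 lay above every control sample and mutant sample 1 below them, and the difference was 0.39 without mutant sample 1 and 0.033 without mutant sample 3. Tnni2, the fast form, gave 7646, 7455 and 7068 in mutant and 8100, 7580 and 8147 in control samples, a difference of -0.10 (SE 0.10). Of the calcium-binding subunits, Tnnc1, the slow and cardiac form, gave 4077, 6457 and 5863 in mutant and 5624, 6505 and 4799 in control samples, a difference of -0.06 (SE 0.19). Tnnc2, the fast form, gave 16733, 12921 and 13459 in mutant and 15261, 14334 and 16601 in control samples, a difference of -0.11 (SE 0.13).

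The elastic and anchoring proteins had intervals within 1.5-fold. Ttn, which encodes titin, the giant spring from Z disc to M line, gave 15037, 8757 and 8978 in mutant and 8781, 10293 and 10360 in control samples, a difference of 0.11 (SE 0.20). Actn2, the alpha-actinin that crosslinks actin at the Z disc, gave 3678, 3322 and 3058 in mutant and 3299, 3417 and 3482 in control samples, a difference of -0.02 (SE 0.12). Mutant sample 1 was the highest of all 6 for both, by a wide margin for Ttn.

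Among genes of calcium handling, Atp2a1, the fast-fibre calcium pump that refills the sarcoplasmic reticulum, gave 1671, 1889 and 1956 in mutant and 2139, 1952 and 2496 in control samples. Its difference was -0.25 (SE 0.14), and mutant sample 3 overlapped control sample 2 by a narrow margin. Ryr1, the calcium release channel, differed by -0.17 (SE 0.21) and Casq2, a calcium store protein of slow fibres and heart, by 0.07 (SE 0.15). Chrna1, the alpha subunit of the muscle acetylcholine receptor, whose promoter carries CAGCTG at 2 places, gave 310, 337 and 222 in mutant and 221, 278 and 300 in control samples, a difference of 0.10 (SE 0.21). Chrng, the gamma subunit of the fetal receptor, differed by 0.02 (SE 0.24), with 227 to 448 in control samples enclosing the mutant range of 285 to 346. Ckm, the muscle creatine kinase that buffers ATP, gave 5283, 7466 and 8141 in mutant and 8475, 7178 and 12121 in control samples, a difference of -0.40 (SE 0.22). Control sample 3 was the highest for Ckm and mutant sample 1 the lowest, and the groups overlapped. Without control sample 3 the difference of Ckm was -0.19. A second, dimmer Ckm probe set differed by 0.03, and averaged over both Ckm differed by -0.18.

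Grouped by fibre type, fast genes mostly had small negative differences. Genes of slow fibres or shared with the heart, called slow below for short, mostly had small positive ones. There were 0 members of either kind past the test. All 6 tested fast genes (Tnnt3, Atp2a1, Tnnc2, Tnni2, Myl1 and Mylpf) had a negative difference, from -0.25 to -0.06, with a median of -0.11. Of 8 genes of slow fibres or shared with the heart, 6 had a positive difference (Myh7, Tnnt2, Tnnt1, Tnni1, Casq2 and Actc1) and 2 a negative one (Tnnc1 and Actn2), with a median of 0.13. Tnnt2 and Actc1 are cardiac forms that embryonic or fetal muscle also makes, so this group does not stand for slow fibres alone. Of its slow myosin and troponin genes, Myh7, Tnnt1 and Tnni1 were positive and Tnnc1 negative. The 4 developmental genes Myh3, Myh8, Myl4 and Chrng had a median of -0.06, with 2 on each side of 0. Over all probe sets the median was -0.02, and 12513 of the 22518 differences were negative. With any 1 sample left out, the fast median stayed between -0.15 and -0.080 and the slow median between 0.065 (without mutant sample 3) and 0.15. In the fit without _s_at, _x_at and _a_at probe sets, 5 slow genes remained and their median was 0.066, and with array weights it was 0.068.

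The same genes were also read sample by sample. Each gene's deviation from its own mean over the 6 samples was averaged over the 8 slow or heart-shared and the 6 fast genes. The fast mean was -0.067, -0.087 and -0.056 in mutant samples 1, 2 and 3. In control samples 1, 2 and 3 it was 0.098, -0.038 and 0.15. Control sample 2 was thus on the same side of 0 as the mutant samples, with 0 of its 6 fast genes above their own mean. The slow minus fast value was 0.11, 0.19 and 0.10 in mutant samples 1, 2 and 3 and -0.10, 0.028 and -0.33 in control samples 1, 2 and 3. Mutant and control samples did not overlap, and control sample 3 lay farthest from 0. This value was computed with the members' differences in view and was not tested. It is built from the same genes and samples as those differences, so the separation gives them no further support.

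**Figure D3:**
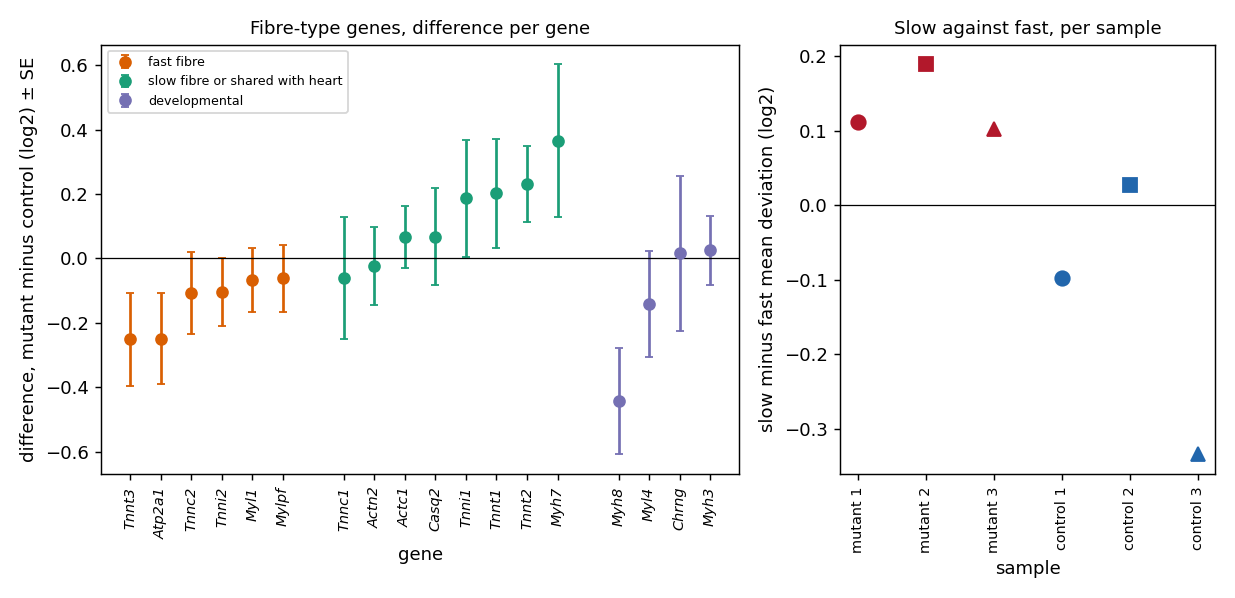
Left, difference between mutant and control means (log2) with its standard error for the 18 tested fast, slow or heart-shared and developmental genes. Right, the mean deviation of slow or heart-shared genes minus that of fast genes in each sample (log2), which was not tested. The 3 mutant samples lie above the 3 control samples, in a value built from the same genes as on the left.

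Slow skeletal fibres and the heart share genes, so heart markers were read beside them. Of 11 measured heart markers, 4 were bright enough to test. Tnni3, the cardiac troponin I, was at no more than 24.6 in any sample, Nppa at no more than 81.4, Myh6 at no more than 67.1 and Nkx2-5 at no more than 77.3. Other heart markers were brighter. Myl7, the atrial light chain, was at 234 to 333 in the 6 samples, with a difference of 0.14 (SE 0.19). Mybpc3, the cardiac myosin-binding protein C, gave 77.2, 77.7 and 190 in mutant and 123, 189 and 198 in control samples, a difference of -0.55 (SE 0.34). Nppb, a natriuretic peptide gene that was too dim to test, was at 52.0 to 156. Myl3, the light chain of the ventricle and of slow skeletal fibres, gave 928, 971 and 1205 in mutant and 672, 634 and 589 in control samples, which did not overlap. Its difference was 0.68 (SE 0.16, limma unadjusted p = 0.00177, adjusted p = 0.623), from a probe set whose name ends in _s_at and which may read related transcripts. Myl2, its partner in ventricle and slow fibres, varied widely, at 571, 123 and 950 in mutant and 93.1, 191 and 329 in control samples. The summed signal of the 11 heart markers was 1903 to 3007 in mutant and 1490 to 1740 in control samples, mostly from Myl2 and Myl3. The part of other cell types in the fast and slow values was not tested.

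In a wider list of 73 other skeletal muscle genes there was also none past the test, with a larger spread of differences than among the members. Of these, 68 were measured and 58 tested, and 0 passed the adjusted threshold in either direction. The median difference was -0.02, with 27 positive and 31 negative. At an unadjusted p under 0.05 there was 1 gene lower and 0 higher, against 1.97% and 1.45% of all probe sets. The differences ran from -0.84 to 0.98, against -0.44 to 0.37 for the members, and their median size was 0.15 against 0.11. The 95% interval excluded a 2-fold change for 50 of the 58 (86.2%) and a 1.5-fold change for 19 (32.8%), against 90.1% and 47.4% of all probe sets. These 58 genes were dimmer than the 31 tested members. Their median level on the log2 scale was 8.75, against 11.73 for the members and 9.07 for all probe sets tested. The part of brightness and of the number of genes in the larger spread was not tested. The gene lower at that p was Ankrd23, a titin-binding ankyrin repeat protein, with 144, 151 and 127 in mutant and 193, 345 and 297 in control samples, a difference of -0.84 (SE 0.24, limma unadjusted p = 0.00708, adjusted p = 0.9999). Next by p among negative differences were Pgam2, the muscle phosphoglycerate mutase, with -0.34, and Myoz1, a Z-disc protein of fast fibres, with -0.42. Pgam2 gave 1554, 1584 and 1535 in mutant and 2039, 1636 and 2340 in control samples, which did not overlap. Of the 58 genes, 2 had all mutant samples below all control samples and 1 had them above. The shares of all probe sets were 5.03% and 3.3%. The smallest p among positive differences belonged to Trdn, the triadin of the calcium release complex, with 0.46, Fbxo32, the atrophy-linked ubiquitin ligase atrogin-1, with 0.98, and Lmod2, an actin nucleator, with 0.29. For Fbxo32 mutant sample 1 stood at 627, against 77.2 to 146 in the other samples.

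Mutant sample 1 stood apart from the other arrays, with a mean correlation of 0.94 to the others against at least 0.961 for each of them. Smooth muscle markers had a summed signal of 60065 in that sample and of 6619 to 9050 in the other 5, and decidual and uterine markers one of 50057 against 357 to 769. The latter came mostly from Prap1 (32479), Prl8a2 (14204) and Pgr (2719), and Hand2 (477) was also highest there. The other markers of that list were not raised. Prl3c1 (2.18) and Dcpp1 (3.55) had their lowest signal there, and Bmp8a (54.6) and Ltf (118) lay within the range of the other samples. The summed signal of the 33 members in mutant sample 1 lay within the range of the other samples. It was 182588 in mutant sample 1, 177173 and 179746 in mutant samples 2 and 3, and 177674 to 196823 in control samples. That of the 68 other skeletal muscle genes was highest in mutant sample 1, at 75427 against 61139 to 68711 in the other samples. Of the 58 tested among them, 20 had their highest signal there, as did 24.5% of all probe sets tested. The median deviation of the 31 tested members in mutant sample 1 was 0.02, against 2.95 for 6 tested smooth muscle markers and -0.55 for 9 keratinocyte markers. Dermal fibroblast markers, 9 of them tested, had a median deviation of 0.02 in that sample. Markers of the labelled tissue were bright in every sample, with summed signals of 133001 to 193407 for keratinocyte and 148360 to 168580 for dermal fibroblast genes.

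**Figure D4:**
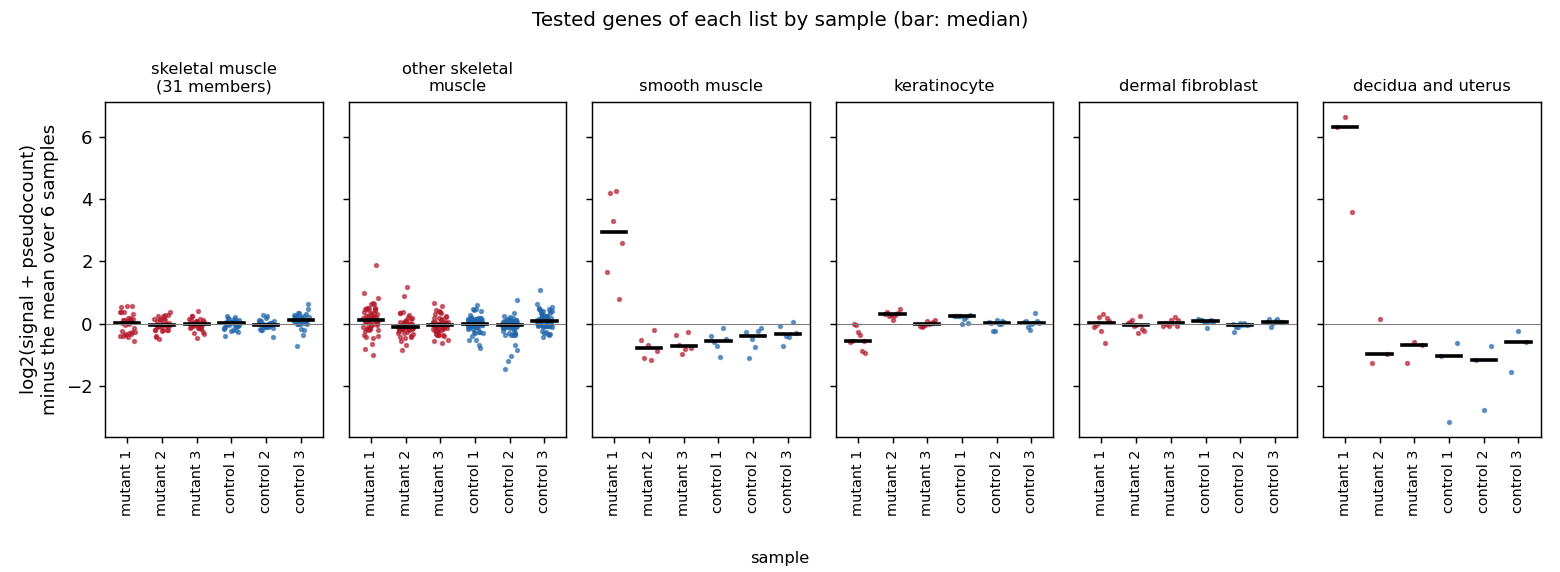
Deviation of each tested gene from its own mean over the 6 samples (log2), by list and sample, with a bar at the median. The tested smooth muscle and decidual genes are high in mutant sample 1 alone. The 31 skeletal muscle members have medians between -0.04 and 0.12 in every sample. Those of the other skeletal muscle genes lie between -0.10 (mutant sample 2) and 0.11 (mutant sample 1).

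Within mutant sample 1, single members went in opposite directions. Set against the mean of the other 5 samples, 6 members were higher by over 0.4 on the log2 scale and 6 were lower by as much, together 38.7% of the 31 tested, against 34.1% of all probe sets. The higher ones were Ttn (0.68), Neb (0.68), Myf5 (0.63), Mef2c (0.46), Myh7 (0.45) and Myf6 (0.44). The lower ones were Ckm (-0.69), Tnnc1 (-0.51), Mybph (-0.50), Cdh15 (-0.48), Acta1 (-0.43) and Tnnt3 (-0.42). The genes of the giant proteins titin and nebulin were on the higher side. Of the 5 tested Ttn probe sets, 4 had their highest signal in mutant sample 1. The ratio of 3′ to 5′ signal of the Gapdh control probe sets was 0.804 in mutant sample 1 and 0.757 to 0.82 in the others, and that of beta-actin was 1.69 against 1.36 to 1.53. Their part in this pattern was not tested. Without mutant sample 1 the differences of Ttn, Mef2c, Casq2 and Myh3 turned negative (-0.14, -0.16, -0.069 and -0.033) and those of Tnnc1, Cdh15 and Acta1 positive (0.14, 0.11 and 0.0020).

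Control sample 3 was the other sample at the end of many rows. It held the highest signal for 10 of the 31 tested members (32.3%), against 17.0% of all probe sets tested. Ckm and Chrng were higher there by 0.75 and 0.57 than the mean of the other 5 samples, and on the same scale Myh7 and Tnnt1 were at -0.87 and -0.46. Mutant sample 2 held the lowest signal for 10 members, against 22.04% of all probe sets, among them Myod1, Myf6 and Myh8. Control samples 1 and 2 held the highest signal for 2 and 1 members.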

How the data were processed

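The deposited table gives 1 intensity for each probe set and array, unlogged. The authors computed it with MAS5, according to the submitters' processing notes, in which no version stands, and each column had been scaled to a trimmed mean (2% off each end) of 500.003. Total RNA had been prepared with Qiagen RNeasy columns and biotin-labelled, per the labels' protocols. No further normalization was applied. The constant in log2(signal + 24.48) was set at the 20th percentile of the whole table. The 64 control probe sets were left out, and 22518 probe sets whose mean log2 over all 6 arrays exceeded the median were fitted in limma 3.58.1 under R 4.3.3 (all 6 samples, no covariate, 4 residual degrees of freedom, trended eBayes, two-sided tests). P-values were adjusted by Benjamini-Hochberg over all of these, and the fit was tested on simulated data. Probe sets were named by the platform annotation, in which 34958 probe sets had 1 symbol, 932 several and 9211 none. The number of arrays limits the precision.

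The members and lists were chosen with earlier results of these data known. All 33 members are named. Of the other skeletal muscle genes, the 3 with the smallest p in each direction are named, and of marker lists those that define the cell type. Myoz1, Pgam2 and Ankrd23 fall under this rule, and Myl3, Myl2 and Mef2c's further probe sets were singled out after their values were seen. Lists of brown fat, tendon, cartilage and bone, and nerve markers were also read. Alternatives were other pseudocounts (1 and 100), no filter or a stricter one, quantile normalization, median centring, no variance trend, array weights, the replicate number as a block, other choices of probe set, and each sample left out. Sequences came from the RefSeq promoter table. Figures were drawn with matplotlib 3.10.9.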

Additional observations from a re-analysis of the deposited data

How the results depend on the processing

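In the 17 other settings, 0 members passed an adjusted p of 0.05. The lowest limma adjusted p of a member was 0.0997 (Myh8 with array weights). The array weights were 0.26, 0.56 and 3.13 for mutant samples 1, 2 and 3 and 1.21 to 1.38 for control samples. Results with array weights thus rest mostly on mutant sample 3 for the mutant side. The median difference of the members ran from -0.077 (quantile normalization) to -0.011 (without control sample 3). The number of probe sets past the threshold was 0 with the stricter filter (407 at an unadjusted p under 0.05), 106 with array weights, 2 for means over a gene's probe sets, and 1 to 39 with 1 sample left out, the highest in the absence of mutant sample 1 (3 when control sample 2 was dropped, 2 when mutant sample 2 was). A replicate block let 8 probe sets and 0 members pass. The correlations between deviations of samples sharing a number were -0.052, -0.073 and 0.11, so the numbers were not taken to pair the samples. Of 516 gene values, 28 in 14 genes had the other sign, none past the threshold, and the cause was not tested. With array weights these were Tnnc1 (0.042), Ttn (-0.079), Mybph (0.059), Chrna1 (-0.12), Mef2c (-0.10) and Cdh15 (0.074). Mef2c was at -0.13 as a mean over probe sets and at -0.095 without _s_at, _x_at and _a_at probe sets. With 1 sample left out, differences ran from -0.23 to 0.0020 for Acta1, -0.034 to 0.076 for Myh3, -0.19 to 0.14 for Tnnc1, -0.14 to 0.25 for Ttn, -0.069 to 0.19 for Casq2, -0.16 to 0.14 for Mef2c, -0.16 to 0.11 for Cdh15, -0.32 to 0.080 for Myf6, -0.38 to 0.13 for Neb, -0.015 to 0.27 for Chrna1, -0.053 to 0.17 for Myog, -0.092 to 0.040 for Actn2 and -0.20 to 0.26 for Chrng. The fast-fibre median, a result added after seeing the data, stayed negative in every setting run. Dim genes such as Pax7 and Myh1 are limited by their signal over background.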

Other observations

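Markers of tissues that border skin muscle were also read. Of 5 tendon markers, 3 were tested, with a median difference of 0.28. Thbs4, a thrombospondin of tendon and of injured muscle, gave 318, 225 and 202 in mutant and 139, 192 and 141 in control samples, which did not overlap (difference 0.57, SE 0.24, limma unadjusted p = 0.038, adjusted p = 0.9999). Thbs4 had the smallest p of the 3, and 3.3% of all probe sets tested had all mutant samples above all control samples. Tnmd, the tendon membrane protein tenomodulin, differed by -0.05 and Fmod by 0.28. Scx and Mkx, too dim to test, were at no more than 77.4 and 53.6 in any sample, with differences of 0.0018 and 0.011. Of 7 brown fat markers, 6 were tested, with a median of 0.27, while Ucp1, the thermogenic uncoupler, was at no more than 64.1 in any sample. All 6 tested brown fat markers had their highest signal in mutant sample 1, with a median log2 deviation from the mean of the 6 samples of 0.70 there, -0.31 in mutant sample 2 and 0.06 in mutant sample 3. Adipoq, the adiponectin gene that white fat also makes, gave 2769, 81.2 and 655 in mutant and 538, 118 and 644 in control samples. The part of fat in the values of mutant sample 1 was not tested. The 3 tested cartilage and bone markers had a median of -0.34 and the 3 tested nerve markers one of 0.09.

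Klhl41, a muscle protein that stabilises nebulin, had a within-group spread of 0.99 on the log2 scale, against at most 0.57 for any member, at 301, 1485 and 944 in mutant and 968, 296 and 521 in control samples. It was chosen after its values were seen.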
